A study of Mus musculus with 6 samples.

Results

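The MHC class II antigen presentation genes were examined in bulk RNA-Seq of inguinal white adipose tissue (iWAT). The 10 members are a list of symbols drawn up with earlier results of these data known: *H2-Aa*, *H2-Ab1*, *H2-Eb1*, *Cd74*, *Ciita*, *H2-DMa*, *H2-DMb1*, *H2-Oa*, *Cd86* and *Flt3*. Of these 10, 8 had a row among the 37024 rows of the count table, and 6 had enough counts to be tested. *H2-DMa*, which makes the partner chain of *H2-DMb1*, and *Flt3*, a growth factor receptor of dendritic cell precursors, were not analysed here. A symbol with more than 1 row is represented by its row of highest total. The study compared *Lexis*-AdKO mice, which carry a floxed *Lexis* allele and adiponectin-cre, with *Lexis*-AdWT littermates, which carry the floxed allele (fl/fl) without Cre. All mice were on a C57BL/6 background and were fed a Western diet for 12 weeks. Their ages are not given for these libraries. Each group has 3 libraries, described as biological replicates. Adiponectin-cre acts in adipocytes, so the leukocytes of the depot are expected to keep an intact *Lexis* gene in both groups. This was not measured here.

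MHC class II molecules are pairs of an alpha and a beta chain that carry peptides from engulfed proteins to the cell surface, where CD4+ T cells read them. They are made chiefly by dendritic cells, macrophages and B cells, and fat is known to hold resident macrophages and dendritic cells. CIITA, the master coactivator of the class II genes, is recruited by factors bound to the X and Y boxes of their promoters. Newly made chains are held by the invariant chain CD74, and the H2-DM dimer then trades the last piece of CD74 for a peptide, a step that the H2-O dimer restrains. CD86 is not part of this machinery, but gives T cells the second signal that presentation needs.

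Total counts lay between 14470542 and 17882713 per library. The targeted gene was read from the row *4930412L05Rik*, taken here as that of *Lexis*, a match that the sources used here do not state. Its counts were 8, 9 and 8 with the AdWT label and 21, 11 and 13 with the AdKO label. It was thus not lower in the latter, which is not what the labels lead one to expect. Counts this low, in a row whose match is not stated, cannot decide whether the labels hold. The groups are named by their labels throughout. The row does not separate the exons of the gene. Some widely expressed genes, among them *H2-K1*, *Tapbp*, *Nfya* and *Creb1*, and the leukocyte genes *Itgb2* and *Lcp1* were listed at 0 in all 6 libraries, so a row at or near 0 in this table does not show that the RNA was absent, and no limit is derived from it. Adipocyte genes were read as a check that the tissue was fat, which does not check the depot. *Fabp4*, a fatty acid carrier, had between 419735 and 563899 counts per library, and *Adipoq*, which encodes adiponectin, had between 70997 and 113310. The library labelled AdWT replicate 2 stood apart in skeletal muscle genes, whose summed level was 213 CPM there and between 21.8 and 54.3 CPM in the other 5 libraries. Levels are given as CPM, counts scaled to the TMM-adjusted library size.

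Promoter sequences of RefSeq (GRCm38.p6, each from 250 bases before to 50 bases after the gene's start) were matched by symbol, and 6 of the 10 members had one. They were searched on both strands for GNAAC, the core of the X box, followed by GATTGG, the core of the Y box, with 28 to 36 bases from start to start. The letters are the textbook cores and the distance was chosen after these promoters were read, so the match is a description. The pair was found in 4 of the 6 members, *H2-Aa*, *H2-Eb1*, *H2-DMb1* and *H2-Oa*, and in 0.569% of all 32851 promoters of this length. On the strand of the gene, the pair was also found in *H2-Ob* and *H2-Eb2*, class II genes outside the members, and not in *H2-DMb2*. It was not found in the windows of *H2-DMa* and *Flt3*, which says only that these letters at this distance are not there. GATTGG by itself was found in 16.1% of them. The windows are shown because the pair of boxes is a feature that these 4 members share, with both cores in capitals, written 5′ to 3′ on the strand of the gene.
H2-Aa: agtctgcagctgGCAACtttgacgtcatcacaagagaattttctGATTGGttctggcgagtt
H2-Eb1: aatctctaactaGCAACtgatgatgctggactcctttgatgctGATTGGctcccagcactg
H2-DMb1: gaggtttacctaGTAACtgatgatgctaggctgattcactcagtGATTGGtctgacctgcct
H2-Oa: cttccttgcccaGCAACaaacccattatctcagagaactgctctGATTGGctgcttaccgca
The windows lie at chr17:34287855-34287916 on the minus strand for *H2-Aa*, and on the plus strand at chr17:34305764-34305824 for *H2-Eb1*, chr17:34153085-34153146 for *H2-DMb1* and chr17:34092291-34092352 for *H2-Oa*, all in GRCm38.p6. The X core starts between 76 and 94 bases before the gene's start in these 4 promoters, and the distance from X to Y is 32 bases in *H2-Aa*, *H2-DMb1* and *H2-Oa* and 31 bases in *H2-Eb1*.

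The files use mm9, and in its annotation (GENCODE M1 on NCBIM37) 6 of the members lie within 224 kb of chromosome 17, from 34229285 to 34453144. *H2-Ab1* encodes the beta chain of the I-A molecule (ENSMUSG00000073421.4, plus strand, 34400154 to 34406363). With the AdWT label its counts were 5146, 3350 and 2845, and with the AdKO label 4058, 4025 and 4243. *H2-Aa*, the alpha chain of the same molecule (ENSMUSG00000036594.7, minus strand, 34406276 to 34424772), had 3848, 2701 and 2298 against 3333, 3556 and 3485. The genes share 88 bases at their ends, so that reads there depend on how strand was counted, which is not stated. In both chains the highest library was AdWT replicate 1, the lowest was AdWT replicate 3, and the 3 libraries labelled AdKO lay between them.

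*H2-Eb1* encodes the beta chain of the I-E molecule (ENSMUSG00000060586.8, 34442828 to 34453144). Its counts were 1463, 875 and 593 against 896, 864 and 1000, with the same library highest and the same library lowest. C57BL/6 mice are known to carry a deletion that silences the I-E alpha chain gene. That gene, *H2-Ea-ps* in the annotation, was listed at 0 in every library. *H2-Eb2*, a neighbouring class II beta gene, had between 3 and 15 counts per library.

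*Cd74* (ENSMUSG00000024610.8) lies outside the MHC. Its counts were 1213, 713 and 604 with the AdWT label and 865, 956 and 1012 with the AdKO label, again with AdWT replicates 1 and 3 as the extremes. *H2-DMb1*, the beta chain of the peptide editor, had 575, 437 and 255 against 373, 423 and 377. Its near-identical neighbour *H2-DMb2* had 0 counts in every library, and how reads common to both were counted is not stated, so the value of *H2-DMb1* is uncertain in that respect. *Cd86* had 349, 308 and 265 against 272, 385 and 294. It was the only one of the 6 tested members with its highest library in the group labelled AdKO, replicate 2, when scaled to CPM, and its lowest was AdKO replicate 3.

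The remaining members had few counts. *Ciita* had 7, 2 and 3 counts with the AdWT label and 3, 5 and 7 with the AdKO label (*P* = 0.7 by exact permutation of the libraries, two-sided, where 0.1 is the smallest *P* that 3 against 3 allows). *H2-Oa* had 1 count in each of AdWT replicates 1 and 2 and 0 in the other 4 libraries, so no fold is given. Counts this low cannot show a difference in either gene.

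**Figure D1:**
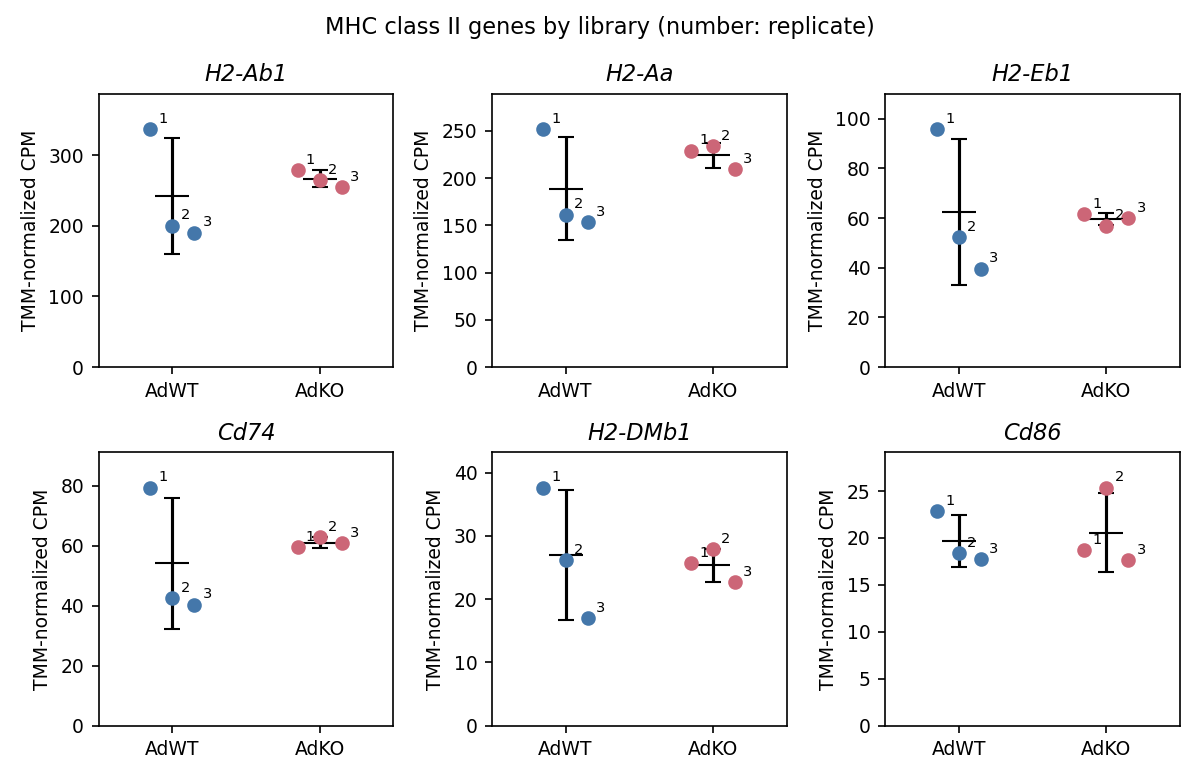
TMM-normalized CPM (y axis, from 0) of the 6 tested class II genes in each of the 6 libraries, by labelled group (x axis). Points are libraries with their replicate number, bars are mean ± SD (n = 3). In 5 of the 6 genes AdWT replicate 1 is highest and AdWT replicate 3 is lowest, with the libraries labelled AdKO between them.

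The comparison of the groups asked whether class II expression in the whole depot differed between the AdKO and the AdWT label. None of the 6 tested members was called at an adjusted *P* under 0.05 by the quasi-likelihood test of edgeR, with adjustment over all 9872 rows tested. The count at an unadjusted *P* under 0.05 was also 0 of 6, where the background over all rows was 5.73%. DESeq2 gave 0 of 6 by either measure. Over the whole table edgeR called 0%, with 272 rows higher and 294 lower at an unadjusted *P* under 0.05 (313 and 162 when scaled by library size only), while DESeq2 called 27 of 6891 rows (0.392%). In bulk tissue, fewer cells of a type and less RNA per cell cannot be told apart.

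*H2-Aa* had the largest difference of the 6, at 189 ± 54.5 CPM with the AdWT label and 224 ± 13.1 CPM with the AdKO label (SD, n = 3 each). Its log2 fold change was 0.25 (AdKO over AdWT, standard error (SE) 0.183, 95% interval -0.18 to 0.67, edgeR adjusted *P* = 0.855). *H2-Ab1* measured 242 ± 81.8 CPM against 266 ± 12.1 CPM (SD, n = 3 each), a log2 fold change of 0.14 with an interval from -0.35 to 0.62. *Cd74* measured 54.1 ± 21.9 CPM against 61.1 ± 1.77 CPM (SD, n = 3 each), with an interval of its log2 fold change from -0.40 to 0.75. For *H2-Eb1* the log2 fold change was -0.07 (interval -0.74 to 0.60), for *H2-DMb1* it was -0.09 (interval -0.69 to 0.52) and for *Cd86* it was 0.07 (interval -0.34 to 0.47). All 6 intervals contain 0 and leave room for moderate changes in either direction. The adjusted *P* values of edgeR ranged from 0.855 to 0.973. The groups overlapped in all 6 members, while 11.9% of all rows tested had groups that did not overlap.

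**Figure D2:**
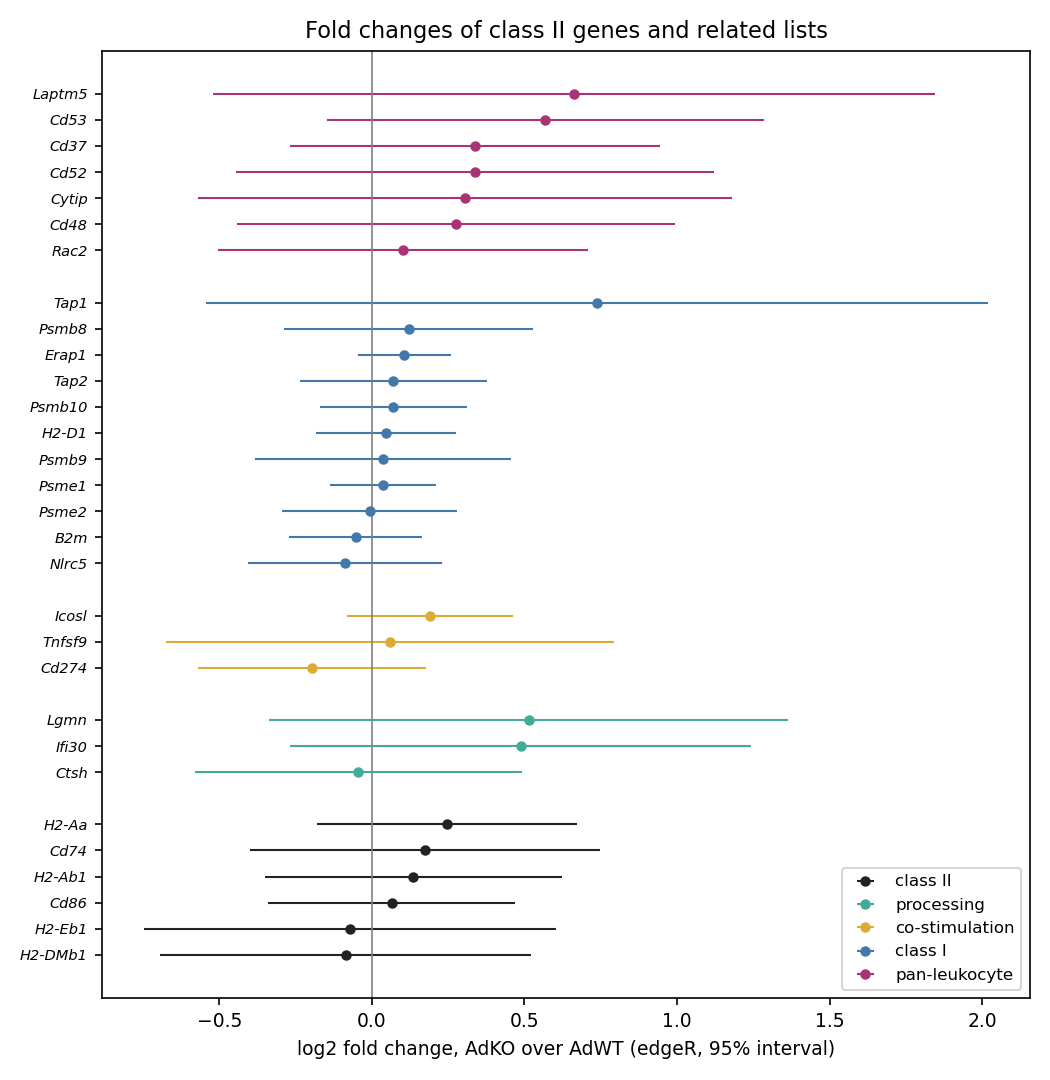
Log2 fold change, AdKO over AdWT (x axis), of each tested gene of 5 lists (y axis), from edgeR, with bars for the 95% interval. Every interval of the 6 class II genes crosses 0, and so do those of the 7 pan-leukocyte genes, whose point estimates all lie above 0.

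The spread within the groups was unequal. Among the 6 tested members the highest library held a median of 1.87 times the lowest in the group labelled AdWT and 1.11 times in that labelled AdKO. Over the 5729 tested rows with a mean of at least 5 CPM the corresponding medians were 1.21 and 1.16. *H2-Eb1* spanned 2.41-fold over the libraries labelled AdWT and 1.08-fold over those labelled AdKO. AdWT replicate 1 was the highest library in 5 of the 6 members, against 14.6% of all rows tested, and AdWT replicate 3 the lowest in 5 of 6, against 24% of rows. These values describe 3 libraries a group, and no test was made of the spread.

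The estimates moved with single libraries. Without AdWT replicate 1, the log2 fold changes became 0.51 for *H2-Aa*, 0.45 for *H2-Ab1*, 0.56 for *Cd74* and 0.37 for *H2-Eb1*. In edgeR's test these 4 then had an unadjusted *P* between 0.00033 and 0.0267, and an adjusted *P* between 0.391 and 0.396. In that fit 11.8% of all rows had an unadjusted *P* under 0.05, 7.2% in the direction of these 4, against 5.73% with all libraries. *H2-DMb1* turned to 0.23. Without AdWT replicate 3, *H2-Eb1* was at -0.32 and *H2-DMb1* at -0.34, while *H2-Ab1* and *Cd74* turned to -0.019 and -0.004. The median over the 6 members, 0.10 with all libraries beside 0.01 over all rows tested, was 0.41 without AdWT replicate 1 and -0.01 without AdWT replicate 3. Without AdWT replicate 2 the median was 0.013, with *H2-Ab1* at 0.010, *Cd74* at 0.023 and *H2-Eb1* at -0.19. Without AdKO replicate 2 it was 0.043, and *Cd86* turned to -0.12.

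**Figure D3:**
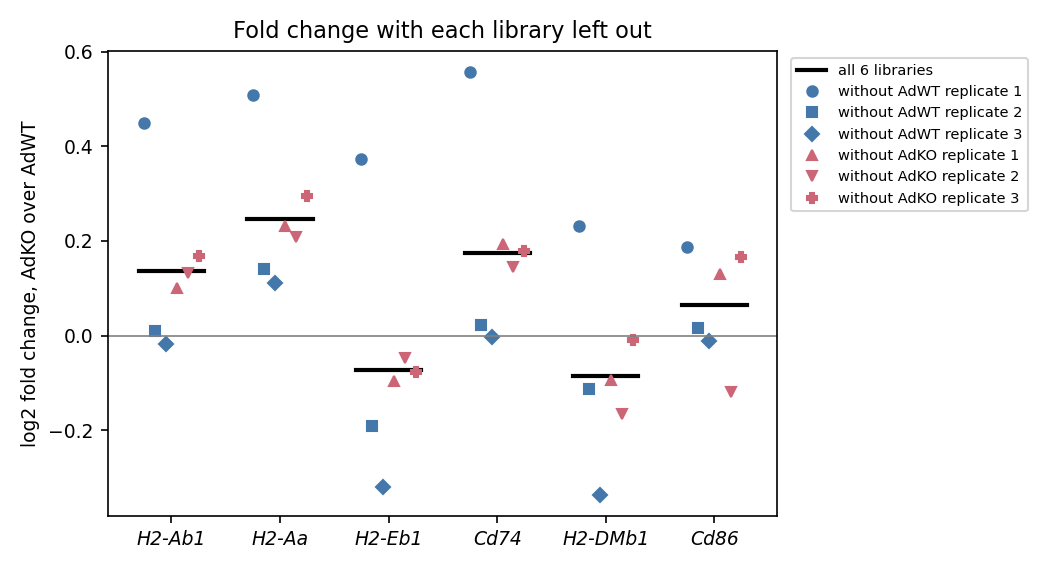
Log2 fold change, AdKO over AdWT (y axis), of the 6 tested class II genes (x axis) with all libraries (bar) and with each library left out in turn (symbols, coloured by the group of the library left out). Leaving out AdWT replicate 1 gives the highest value in all 6 genes, up to 0.56 for *Cd74*, and the lowest values of *H2-Eb1* and *H2-DMb1* come without AdWT replicate 3.

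Levels of different members were compared per length, as CPM per kb of annotated exon. The medians over the 6 libraries were 158 for *H2-Ab1*, 110 for *H2-Aa*, 49.2 for *H2-Eb1*, 42.6 for *Cd74*, 17.5 for *H2-DMb1*, 4.93 for *Cd86* and 0.0431 for *Ciita*. The order of the first 6 was the same in each of the 6 libraries. Over the libraries the range of *H2-Ab1* (116 to 205) overlapped that of *H2-Aa* (77.4 to 127), and that of *H2-Eb1* (33.4 to 80.5) overlapped that of *Cd74* (28.7 to 56.3). The ranges of *Cd74* and *H2-DMb1* (11.5 to 25.5) did not overlap. All these genes except *Ciita* and *Cd86* have 2 rows, and reads common to both may be missing from the row used, so the order between genes is less certain than the order between libraries.

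The proportions of some members were steadier over the libraries than their levels. The count of *H2-Aa* over that of *H2-Ab1*, the paired chains of I-A, was 0.748, 0.806 and 0.808 with the AdWT label and 0.821, 0.883 and 0.821 with the AdKO label. The groups did not overlap in this ratio (*P* = 0.1 by exact permutation, two-sided, which is the least that 3 against 3 allows, and 0.525 after adjustment over the 7 ratios computed). *Cd74* over *H2-Ab1* lay between 0.212 and 0.239 over the 6 libraries. *H2-Eb1* over *H2-Ab1* ranged from 0.208 in AdWT replicate 3 to 0.284 in AdWT replicate 1, with 0.221, 0.215 and 0.236 in the libraries labelled AdKO (exact permutation test, *P* = 0.4, adjusted *P* = 0.56). *H2-Eb1* over *H2-Aa* was likewise highest in AdWT replicate 1, at 0.38, but lowest in AdKO replicate 2, at 0.243.

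Further genes of the pathway were taken as whole lists. Of 14 other class II genes and regulators, 13 had a row, 5 of these (*H2-Ea-ps*, *H2-DMb2*, *H2-Ob*, *Nfya* and *Creb1*) were at 0 in every library, and 5 could be tested, 2 of them higher with the AdKO label and 3 lower. No gene among them had an unadjusted *P* under 0.05 in edgeR, and their median log2 fold change was -0.003. *Rfxap*, a subunit of the complex on the X box, had between 712 and 852 counts, and *Sppl2a*, the protease that clears the last stub of CD74 from the membrane, had between 2295 and 3428. Of 10 genes of endosomal processing only 3 could be tested. *Ifi30*, the thiol reductase that opens disulfide bonds of antigens, had counts of 2138, 1375 and 817 against 1438, 2093 and 2519. On the log2 scale this differed by 0.49 (SE 0.323, edgeR adjusted *P* = 0.853). For *Lgmn*, an endosomal protease, the difference was 0.51 (SE 0.364, edgeR adjusted *P* = 0.855). Both had AdWT replicate 3 as their lowest library, like the class II chains, but AdKO replicate 3 as their highest.

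Of 8 co-stimulatory and checkpoint ligands, 3 could be tested and 0 had an unadjusted *P* under 0.05 in edgeR. *Icosl*, the ligand of ICOS, had a log2 fold change of 0.19 (SE 0.116), and *Cd274*, which encodes PD-L1, had -0.20 (SE 0.159). *Cd80*, the relative of *Cd86*, had between 0 and 7 counts and *Cd40* had 0 in every library. Of the 8 genes that carry the interferon gamma signal to *Ciita*, 5 could be tested, 0 of them at an unadjusted *P* under 0.05 in edgeR, and the median log2 fold change was 0.02. The receptor gene *Ifngr1* had between 10136 and 12153 counts per library and the kinase gene *Jak1* between 8251 and 10034.

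The class I pathway served as a comparison with another presentation pathway. Of 13 genes, *H2-K1* and *Tapbp* were at 0 and 11 could be tested, 8 of them higher with the AdKO label and 3 lower. Their median log2 fold change was 0.05, with 0 at an unadjusted *P* under 0.05 in edgeR. *H2-D1*, a class I heavy chain, had between 20151 and 21775 counts (log2 fold change 0.05), and *B2m*, the light chain, between 73921 and 83573. The median SD of log2 CPM over the 6 libraries was 0.133 for the class I genes, 0.338 for the 6 class II members and 0.233 over all rows tested. *Tap2*, a subunit of the class I peptide transporter that lies between class II genes, had 4135, 3361 and 2904 counts against 3504, 3646 and 3637, in the pattern of the class II chains over a narrower range, with a log2 fold change of 0.07.

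The members were then set against the immune content of each library. Of 15 pan-leukocyte genes, 13 had a row and 7 could be tested. *Ptprc*, which encodes CD45, had only between 3 and 8 counts and did not pass the filter. The leukocyte level thus rests on *Cd53*, *Rac2*, *Cd52*, *Cytip*, *Cd48*, *Cd37* and *Laptm5*, the last with only 3 to 12 counts. All 7 were higher in the libraries labelled AdKO, where the share over all rows was 51.7%, and 0 had an unadjusted *P* under 0.05 in edgeR. Their median log2 fold change was 0.34. *Cd53*, a tetraspanin of leukocytes, had counts of 1034, 864 and 401 against 863, 1094 and 1422 (log2 fold change 0.57, SE 0.306, edgeR adjusted *P* = 0.853). The mean log2 CPM of the 7 genes was 3.97, 3.32 and 2.72 with the AdWT label and 3.49, 3.84 and 3.95 with the AdKO label. AdWT replicate 3 was thus the lowest library, as in class II level, while AdWT replicate 1 and AdKO replicate 3 were close together at the top. By the summed CPM of the same genes AdKO replicate 3 was the highest, with 233 against 229 in AdWT replicate 1.

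**Figure D4:**
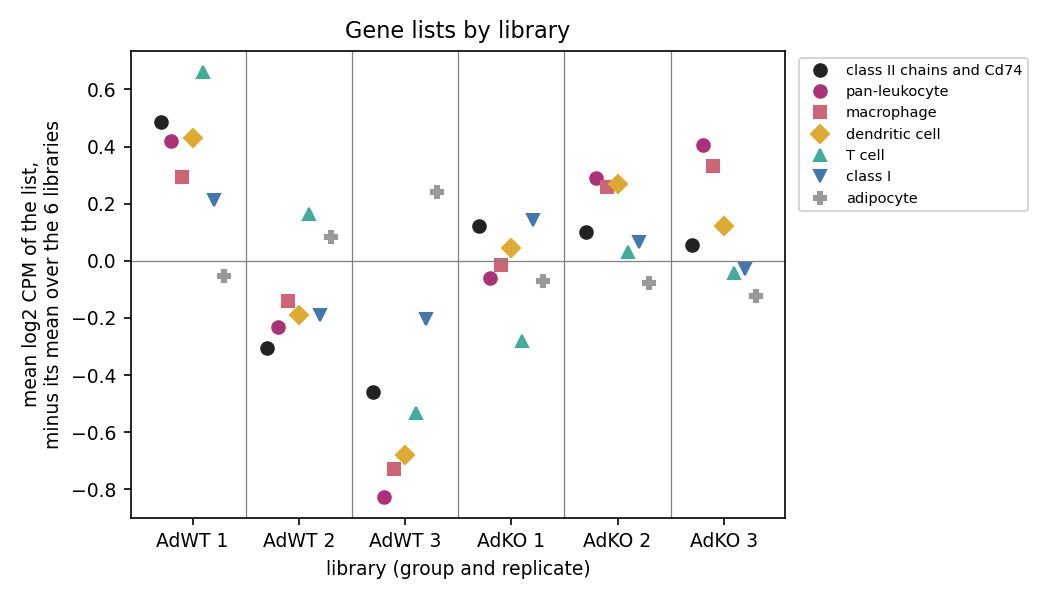
Mean log2 CPM of the tested genes of 7 gene lists in each library (x axis), minus the mean of that list over the 6 libraries (y axis). The class II chains with *Cd74*, the pan-leukocyte, macrophage and dendritic cell genes all lie below 0 in AdWT replicates 2 and 3, while the adipocyte genes lie above 0 there.

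Across the 6 libraries each tested member was related to the leukocyte level. Pearson's r was 0.881 for *Cd74* (exact permutation *P* = 0.00833, 0.05 after adjustment over the 6 relations, Spearman's rho 0.943 with exact permutation *P* = 0.0167). For *H2-Aa* r was 0.846 (exact permutation *P* = 0.0236, adjusted *P* = 0.0708, Spearman's rho 0.829 with exact permutation *P* = 0.0583). For *H2-Ab1*, *H2-Eb1* and *H2-DMb1* r was 0.816, 0.802 and 0.748, with rho of 0.771, 0.829 and 0.6 and adjusted exact permutation *P* values from 0.102 to 0.29. *Cd86* had the weakest relation (r = 0.539, rho 0.314, exact permutation *P* of 0.303 and 0.564). No adjusted *P* was under 0.05, while 1 of the 6 was with scaling by library size only. Without AdWT replicates 2 and 3, the libraries farthest from the median leukocyte level, r fell to 0.56 for *Cd74* and to between 0.0548 and 0.395 for the other 5, so the relation does not hold without those 2 libraries. The 4 that remain span only 3.49 to 3.97 in leukocyte level, and such a narrow range lowers r by itself. A group of 3 is too small for a value within it.

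**Figure D5:**
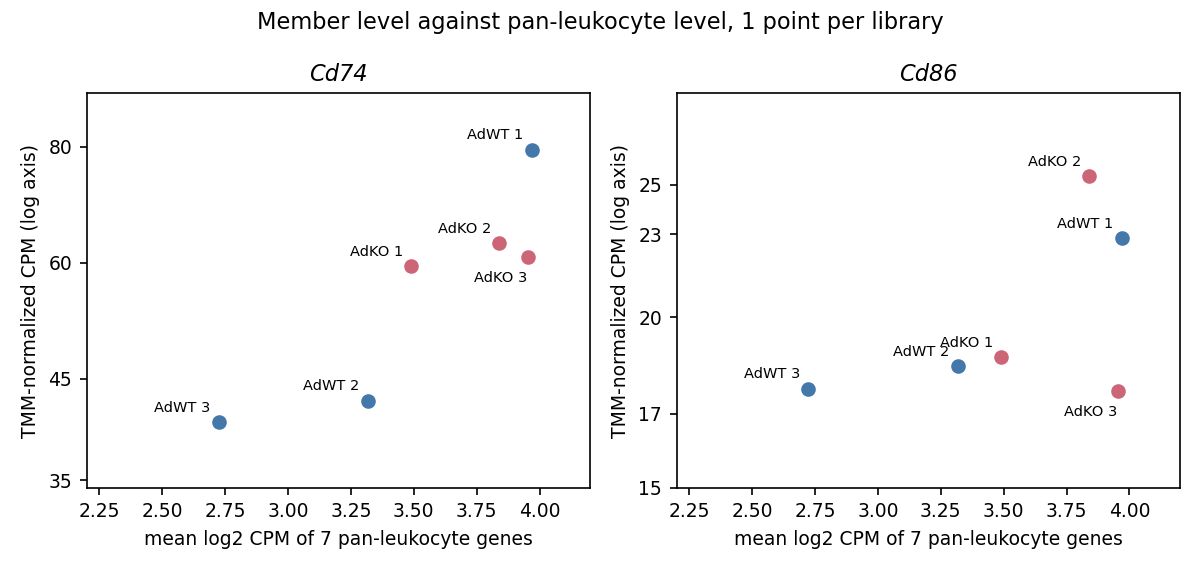
TMM-normalized CPM (y axis, log scale) of *Cd74* and *Cd86* against the mean log2 CPM of the 7 pan-leukocyte genes (x axis), with 1 point per library. *Cd74* is lowest in AdWT replicates 3 and 2, which also have the lowest leukocyte level. *Cd86* in AdKO replicate 3 is as low as in AdWT replicate 3, at 17.7 CPM in both.

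The class II RNA per leukocyte RNA was computed as the summed CPM of *H2-Aa*, *H2-Ab1*, *H2-Eb1* and *Cd74* over the summed CPM of the 7 leukocyte genes. It was 3.34, 3.07 and 4.44 with the AdWT label and 3.82, 3.06 and 2.51 with the AdKO label. AdWT replicate 3, the library with the lowest class II level, had the highest value per leukocyte RNA, and AdKO replicate 3 had the lowest. On the log2 scale the ratio was 1.84 ± 0.278 (SD, n = 3) against 1.63 ± 0.305 (SD, n = 3), a difference of -0.21 that is smaller than the SD of either group. It was -0.054 without AdWT replicate 3, -0.061 without AdKO replicate 3, -0.32 without AdWT replicate 2 and -0.37 without AdKO replicate 1. With the mean log2 CPM of the leukocyte genes as a covariate in edgeR, 1 of the 6 members was higher and 5 were lower in the libraries labelled AdKO, against 4 and 2 without it. The largest changes in that fit were -0.34 for *H2-Eb1* and -0.33 for *H2-DMb1*, with unadjusted *P* values of 0.0679 and 0.0868 in edgeR and an adjusted *P* of 0.913 for both.

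Markers of the single cell types that make class II molecules were taken as lists. Of 16 macrophage genes, 13 had a row and 11 could be tested. Against 51.7% of all rows tested, 9 of the 11 were higher with the AdKO label (median log2 fold change 0.41). Their summed level ranged from 1170 to 2324 CPM in the libraries labelled AdWT and from 1976 to 2460 CPM in those labelled AdKO, while the 6 rows of *Emr1*, a defining macrophage marker, were at 0. At an unadjusted *P* under 0.05 in edgeR there were 2, against 5.73% of all rows tested. These were *Fcer1g*, the common Fc receptor gamma chain, at 0.49 (SE 0.207), and *Mertk*, an efferocytosis receptor, at -0.30 (SE 0.114), each with an adjusted *P* of 0.851. *C1qc*, a complement subunit made by macrophages, was at 0.38 (SE 0.172). The 8 tested of 13 dendritic cell genes had a median of 0.23, a summed level from 269 to 488 CPM against 377 to 482 CPM, and 0 at an unadjusted *P* under 0.05. *Itgax*, which encodes CD11c, had 1360, 1078 and 512 counts against 1104, 1250 and 2041 (log2 fold change 0.58, SE 0.333). *Fscn1*, which bundles actin in mature dendritic cells and is made by other cells too, had between 2831 and 4486. *Irf4* and *Siglech* were at 0.

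AdWT replicate 1 was the highest library in 5 of the 8 tested T cell genes, 1 of the 3 tested B cell genes and the 1 tested lymph node gene, against 14.6% of all rows tested. *Cxcl13*, a chemokine of B cell follicles, had 619 counts there against 94 to 282 elsewhere (log2 fold change -0.44, SE 0.628). *Cd79a*, part of the B cell receptor, had 86 counts there and between 11 and 34 elsewhere, and was at -0.78 (SE 0.784). Without that library *Cxcl13* turned to 0.54 and *Cd79a* to 0.68. *Cd4* had 200 counts there and between 40 and 62 elsewhere. It was the only one of 8 tested T cell genes with an unadjusted *P* under 0.05 in edgeR, at -1.30 (SE 0.51, adjusted *P* = 0.851), and its groups did not overlap. Without AdWT replicate 1 it was at -0.42. *Cd3e*, part of the T cell receptor complex, had between 56 and 117 counts. Of the 8 tested T cell genes, 2 were higher and 6 lower with the AdKO label (median log2 fold change -0.21). Of the 3 tested B cell genes, 1 was higher and 2 were lower (median -0.16). The summed level was 17.1 to 40.2 CPM against 17.5 to 24.7 CPM for the 10 T cell genes with a row, 54.5 to 58.4 CPM against 40.0 to 57.0 CPM for the 10 B cell genes, and 6.36 to 40.7 CPM against 8.29 to 18.8 CPM for the 5 lymph node genes, of which all but *Cxcl13* had between 0 and 2 counts per library. *Cd8a*, *Cr2*, *Fcrla* and *Ccl19* were at 0. *Ighm*, with 635 to 942 counts, made up most of the B cell sum. The part of these cells in the class II level was not tested.

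Of the 6 tested adipocyte genes, 5 had a negative log2 fold change (median over the 6 -0.19). *Lep*, which encodes leptin, was the only one with an unadjusted *P* under 0.05 in edgeR, at -0.46 (SE 0.161, adjusted *P* = 0.851). All 8 tested skeletal muscle genes were lower, where 51.7% of all rows tested were higher. Against 5.73% of all rows tested, 7 of the 8 had an unadjusted *P* under 0.05 in edgeR (*Ckm*, *Mylpf*, *Atp2a1*, *Tnnc2*, *Myh1*, *Myh2* and *Tcap*). The mean log2 CPM of the muscle genes did not overlap between the groups, so muscle content and label cannot be told apart in these libraries.

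The rows most like the class II genes were found by Pearson's r with the mean log2 CPM of *H2-Aa*, *H2-Ab1*, *H2-Eb1* and *Cd74* over the 6 libraries, among 5723 rows with a mean of at least 5 CPM. As a description without a test, the 8 nearest had r between 0.971 and 0.985. They were *H2-T23*, *Uba7*, *Ttc7*, *Dnaaf3*, *Gbgt1*, *Tap2*, *Mfsd1* and *Evpl*. *H2-T23*, a nonclassical class I gene of the MHC (chromosome 17, 36166718 to 36169800 in mm9), had 69.3, 43.4 and 42.4 CPM with the AdWT label and 59.7, 55.8 and 57.2 CPM with the AdKO label. *Uba7*, the activating enzyme for ISG15 conjugation, had 8.83, 4.78 and 4.28 CPM against 7.56, 6.59 and 6.07 CPM.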

How the data were processed

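Libraries were made from iWAT RNA with a stranded kit. Reads were mapped by the authors to mm9 (HISAT2), and the deposited values are raw counts without normalization. The counting tool, its annotation and its strand setting are not given in the sources used here. Of the 37024 rows, 17470 were at 0 in every library, and 8694 symbols have more than 1 row. DESeq2 is the tool named in the submitters' processing notes.

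Counts were compared with edgeR 4.0.16 (R 4.3.3, glmQLFit and glmQLFTest) after filterByExpr and TMM scaling, with Benjamini-Hochberg adjustment over the 9872 rows tested and a threshold of 0.05. SE was computed from the fold change and F. Log2 CPM used a prior count of 2, and exact permutation tests of single genes used log2 of CPM plus 0.5. Locations and exon lengths come from GENCODE M1 (NCBIM37). Genes outside the members were named when they had an unadjusted *P* under 0.05 or were among the 2 of highest mean CPM in their list, and the 8 most like in pattern were added. *H2-Ea-ps* and *Ptprc* were named in any case. *Rfxap*, *H2-Eb2*, *H2-DMb2*, *Cd80*, *Adipoq* and the genes listed at 0 were chosen after their values were seen. *Crebbp*, *C1qa* and *Myl1*, also named by the rule, had no unadjusted *P* under 0.05, and *Ltb*, named by it too, was not tested.

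Alternatives were DESeq2 1.42.0, other scalings and filters, covariates, a replicate block, summed rows and each library left out. The fits were also run on simulated counts with larger changes than those of the class II genes, and the outcome is not given here. The members and lists were chosen with earlier results of these data known.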

Additional observations from a re-analysis of the deposited data

How the results depend on the processing

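At an adjusted *P* under 0.05 edgeR called 0 rows. DESeq2 called 27, a filter that asked for 1 count in any library gave 1, and leaving out single libraries gave between 0 and 1. None of the tested members was called under any alternative. The median log2 fold change of the tested members lay between -0.015 and 0.41 with each library left out, and the cause was not tested. The log2 class II level per leukocyte level, lower by the AdKO label with a difference of -0.21, differed by 0.22 in the opposite direction with *Ptprc* alone, which has 3 to 8 counts. The number of members related to the leukocyte level at an adjusted *P* under 0.05 was 0, and 1 with library size only and with a prior count of 0.5.

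Whether the replicate numbers pair the libraries is not known. The deviations of same-numbered libraries correlated at -0.0764, -0.132 and 0.33, and those of differently numbered ones at -0.33 to 0.411. With so few libraries these values cannot decide it. With the replicate block 0 rows were called and 418 had an unadjusted *P* under 0.05, against 566 without it. *H2-Eb1* then reversed to 0.025. With the pan-leukocyte covariate *H2-Ab1* reversed to -0.05, *Cd74* to -0.064, *Cd86* to -0.049 and *Tap2* to -0.044. The skeletal muscle level separates the groups completely (mean log2 CPM 1.78 to 4.21 against 0.030 to 0.10), so a fit with it as a covariate cannot tell it from the label and says nothing about stability. In that fit *H2-Aa* reversed to -0.005, *H2-Ab1* to -0.17, *Cd74* to -0.21, *H2-DMb1* to 0.06, *Cd86* to -0.046, *Icosl* to -0.079, *Tap2* to -0.085 and *H2-D1* to -0.11.

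Leaving out single libraries changed the sign of these log2 fold changes, within these ranges: *H2-Ab1* from -0.019 to 0.45, *H2-Eb1* from -0.32 to 0.37, *Cd74* from -0.004 to 0.56, *H2-DMb1* from -0.34 to 0.23, *Cd86* from -0.12 to 0.19, *Tap2* from -0.024 to 0.24, *H2-D1* from -0.001 to 0.13, *Cd79a* from -1.25 to 0.68 and *Cxcl13* from -0.87 to 0.54. The sign of *Cd79a* and of *Cxcl13* changed without AdWT replicate 1. Without AdWT replicate 3 and without AdWT replicate 1 respectively, *H2-Aa* was at 0.11 and 0.51, *Ifi30* at 0.21 and 0.92, *Lgmn* at 0.20 and 0.95, *Cd53* at 0.27 and 0.88, *C1qc* at 0.21 and 0.56, *Fcer1g* at 0.31 and 0.77 and *Itgax* at 0.28 and 0.92. *Cd274* ranged from -0.31 to -0.045 and *Icosl* from 0.10 to 0.26 with single libraries left out.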
